A study of Homo sapiens with 3 samples.

Results

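Serine, glycine and one-carbon metabolism is represented here by 10 genes, chosen by name from a table of 19225 genes: *PHGDH*, *PSAT1*, *PSPH*, *SHMT1*, *SHMT2*, *MTHFD1*, *MTHFD2*, *MTHFD1L*, *ALDH1L2* and *SLC6A9*. They were picked with the difference between CDCA3-depleted and control cells already known, so their differences between those cells are a description and carry no test. All 10 were in the table, and 9 averaged an RPKM (reads per kilobase of transcript, scaled to a total for the library) of 1 or more over the libraries. RNA came from 5637 cells, an established human bladder cancer line whose genotype is labelled WT. The 2 libraries named siCDCA3-1 and siCDCA3-2 were made from cells transfected with siRNA against *CDCA3*, a cell division cycle gene, and the single library named siNC from cells transfected with control siRNA. The design asks which genes lie downstream of *CDCA3*. All cells were transfected with a lipid reagent and grown in RPMI 1640 medium with serum. The labels give neither the time between transfection and RNA extraction nor whether the siCDCA3 libraries stand for different siRNAs or for repeated cultures.

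Cells make serine in the cytosol from a glycolytic intermediate, through the successive enzymes PHGDH, PSAT1 and PSPH. Serine hydroxymethyltransferases then split serine into glycine and a carbon unit carried on tetrahydrofolate, with SHMT2 acting in mitochondria and SHMT1 in the cytosol. In mitochondria the unit is oxidised by MTHFD2 and released as formate by MTHFD1L, or oxidised to carbon dioxide by ALDH1L2. In the cytosol MTHFD1 takes formate up again for the synthesis of purines and thymidylate. Many genes of serine synthesis and of the mitochondrial folate branch are known targets of ATF4, the transcription factor of the amino acid stress response.

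The libraries held 40420563 gene-level counts (siCDCA3-1), 62389922 (siCDCA3-2) and 50912733 (siNC). The deposited RPKM rest on larger library totals, of 104153360, 160640877 and 130459616 in the same order. *CDCA3* itself had an RPKM of 0.574 in siCDCA3-1 and 1.40 in siCDCA3-2, against 5.52 in siNC. All 8 epithelial markers looked up had an RPKM of at least 1 in every library, with summed RPKM of 1842, 1420 and 2280 in siCDCA3-1, siCDCA3-2 and siNC, and none was at 0. Leukocyte markers summed to 2.68, 1.38 and 1.95, endothelial markers to 0.0979, 0.0485 and 0.0312 and fibroblast markers to 10.0, 2.34 and 7.22 in the same order. *PTPRC*, *CD3E*, *CD14*, *PECAM1*, *CDH5*, *VWF*, *PDGFRB* and *DCN* stayed under an RPKM of 1 in each library. The others differed between libraries: *COL1A1* had 8.33, 2.26 and 6.96, *LUM* 1.47, 0.00294 and 0.123, and *CD68* 1.94, 0.993 and 1.42 in siCDCA3-1, siCDCA3-2 and siNC, and their part in the results was not tested.

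The 3 enzymes of serine synthesis had lower RNA levels in both siCDCA3 libraries than in siNC. *PHGDH* (NM_006623.3, GRCh38 chromosome 1, 119711934 to 119744215, 12 exons), which encodes the first and usually rate-limiting enzyme of the route, had an RPKM of 47.0 in siCDCA3-1 and 41.3 in siCDCA3-2, against 154 in siNC. The siCDCA3 libraries lay close together and both far under siNC, with siCDCA3-1 at 30.5% of its level (29.8% to 31.2%) and siCDCA3-2 at 26.8% (26.3% to 27.4%). The ranges in brackets, here and for the genes that follow, are exact 95% binomial intervals on the reads and cover counting error only. With a rank of 145 among 10153 genes by RPKM in siNC, *PHGDH* was the most abundant of the 10 genes there.

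*PSAT1* (NM_058179.3, chromosome 9, 78297125 to 78330093, 9 exons), the aminotransferase that follows, had an RPKM of 3.09 in siCDCA3-1 and 9.44 in siCDCA3-2, against 38.4 in siNC. Both siCDCA3 values were low, and siCDCA3-1 was the lowest by a wide margin: 8.05% of siNC (7.46% to 8.68%) against 24.6% (23.7% to 25.6%) in siCDCA3-2. *PSPH* (NM_004577.3, chromosome 7, 56011064 to 56051444, 8 exons), the phosphatase that releases serine, had an RPKM of 3.02, 3.83 and 11.1 in siCDCA3-1, siCDCA3-2 and siNC. That is 27.3% of siNC in siCDCA3-1 (25.0% to 29.7%) and 34.6% in siCDCA3-2 (32.4% to 36.9%). Summed over the 3 enzymes, RPKM was 53.1 in siCDCA3-1 and 54.6 in siCDCA3-2, against 204 in siNC, so the sum came to 26.1% and 26.8% of siNC although the single genes differed between the siCDCA3 libraries. *PHGDH* makes up most of this sum in every library. RPKM is a share of the reads, and in bulk RNA less RNA per cell cannot be told apart from fewer cells that express the gene.

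**Figure D1:**
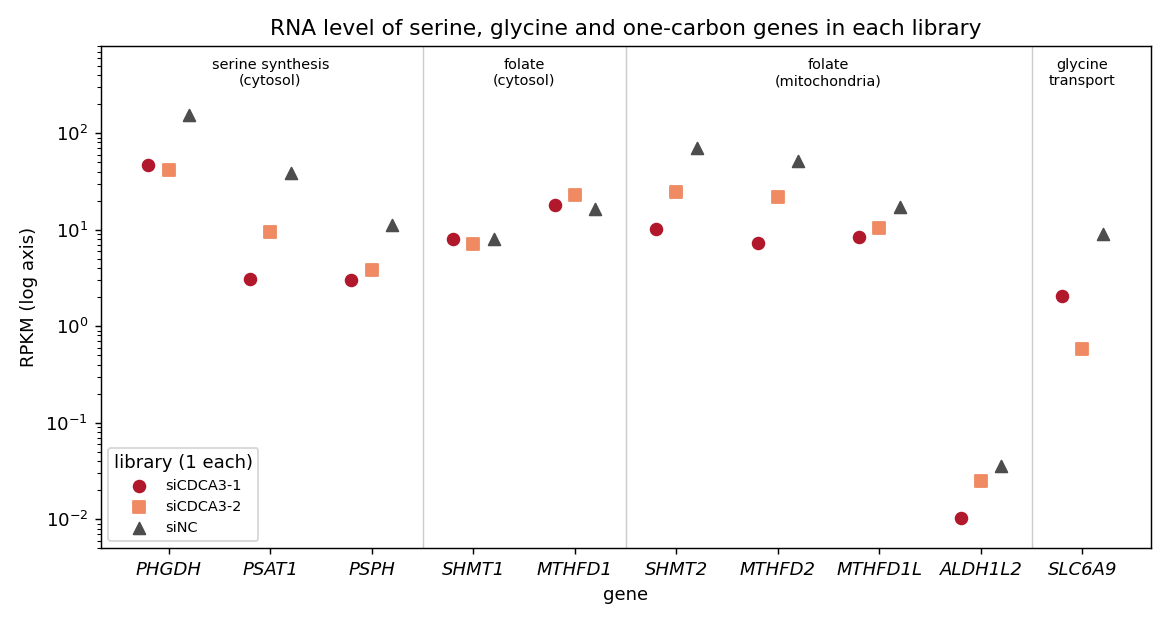
RPKM (log axis) of the 10 genes in each of the 3 libraries, ordered by role, with 1 point per library and no error bar because each library was measured once. For *PHGDH*, *PSAT1*, *PSPH*, *SHMT2*, *MTHFD2*, *MTHFD1L* and *SLC6A9* both siCDCA3 points lie under the siNC point, while *SHMT1* and *MTHFD1* stay close to it and *ALDH1L2* is near 0 throughout.

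The cytosolic folate enzymes did not share this difference. *SHMT1* (NM_004169.4, chromosome 17, 18327873 to 18363550, 12 exons), the cytosolic serine hydroxymethyltransferase, had an RPKM of 8.07 in siCDCA3-1 and 7.02 in siCDCA3-2, against 7.99 in siNC. One siCDCA3 library was level with siNC at 101% (95.3% to 107%) and the other was slightly under it at 87.8% (83.3% to 92.6%). *MTHFD1* (NM_005956.3, chromosome 14, 64388353 to 64460025, 28 exons), the trifunctional cytosolic enzyme, had an RPKM of 17.9, 22.6 and 16.4 in siCDCA3-1, siCDCA3-2 and siNC. Both siCDCA3 libraries were above siNC, at 109% (105.5% to 113%) and 137.5% (134% to 141.5%). It was the only one of the 10 genes higher in both.

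In the mitochondrial folate branch the levels of *SHMT2* and *MTHFD2* were lower in both siCDCA3 libraries, more so in siCDCA3-1. *SHMT2* (NM_005412.5, chromosome 12, 57229711 to 57234935, 12 exons), which makes most mitochondrial glycine from serine, had an RPKM of 10.2 in siCDCA3-1 and 24.5 in siCDCA3-2, against 69.4 in siNC. These are 14.7% (14.1% to 15.4%) and 35.3% (34.4% to 36.1%) of siNC. *MTHFD2* (NM_006636.3, chromosome 2, 74198615 to 74217565, 8 exons), a dehydrogenase and cyclohydrolase that is abundant in many tumours, had an RPKM of 7.23 in siCDCA3-1 and 21.8 in siCDCA3-2, against 51.0 in siNC. At 14.2% (13.5% to 14.9%) and 42.8% (41.6% to 44.0%) of siNC, its pattern over the libraries was close to that of *SHMT2*.

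*MTHFD1L* (NM_001242767.1, chromosome 6, 150865702 to 151101887, 28 exons), the mitochondrial formate-releasing synthetase, had an RPKM of 8.38, 10.4 and 16.97 in siCDCA3-1, siCDCA3-2 and siNC. Both siCDCA3 libraries were lower, at 49.4% (47.3% to 51.5%) and 61.5% (59.5% to 63.7%) of siNC, a smaller difference than for *SHMT2* and *MTHFD2*. *ALDH1L2* (NM_001034173.3, chromosome 12, 105019790 to 105084458, 23 exons) had 8 counts in siCDCA3-1 and 30 in siCDCA3-2, against 35 in siNC, or RPKM of 0.0102, 0.0248 and 0.0356. With so few reads the intervals were wide, 28.6% of siNC in siCDCA3-1 (11.5% to 62.8%) and 69.6% in siCDCA3-2 (41.3% to 117%). This gene therefore adds almost nothing to the summed RPKM of the mitochondrial branch, which was 25.8 in siCDCA3-1 and 56.7 in siCDCA3-2, against 137 in siNC. The sum stood at 18.8% and 41.3% of siNC, while that of the cytosolic folate enzymes stood at 106% and 121%.

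*SLC6A9* (NM_001024845.2, chromosome 1, 43996483 to 44031462, 14 exons), which encodes the glycine transporter GLYT1 of the plasma membrane, had an RPKM of 2.07 in siCDCA3-1 and 0.575 in siCDCA3-2, against 8.97 in siNC. Here siCDCA3-2 was the lowest library, at 6.41% of siNC (5.68% to 7.21%), and siCDCA3-1 stood at 23.0% (21.2% to 25.0%). Its order of the siCDCA3 libraries was thus the opposite of that for *PSAT1*, *SHMT2* and *MTHFD2*.

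Counted by size, 6 of the 10 genes lay 2-fold or more under siNC in each of the siCDCA3 libraries on log2(RPKM + 1), and 0 lay 2-fold or more above it. They were *PHGDH*, *PSAT1*, *PSPH*, *SHMT2*, *MTHFD2* and *SLC6A9*. Among the 10153 genes that averaged an RPKM of 1 or more, 0.719% met the lower criterion and 0.0985% the higher one. Taken singly, siCDCA3-1 had the same 6 genes past 2-fold lower, against 1.74% of all genes, and so did siCDCA3-2, against 3.27%. Since the genes were picked with this contrast in view, nothing is read from the gap. Lower in both libraries by any size were 8 of the 10, against 27.8% of the 10153 genes. *ALDH1L2* is under the RPKM level set for the 10153. Of the 9 genes that reach it, 7 were lower in both and 6 were past 2-fold lower. The median log2 difference from siNC was -1.64 in siCDCA3-1 and -1.26 in siCDCA3-2 over the 10 genes, and -0.07 and 0.05 over all 10153. Over the 9 genes this median was -1.69 and -1.32. A single siNC library serves both differences, so the directions they share are not independent results.

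**Figure D2:**
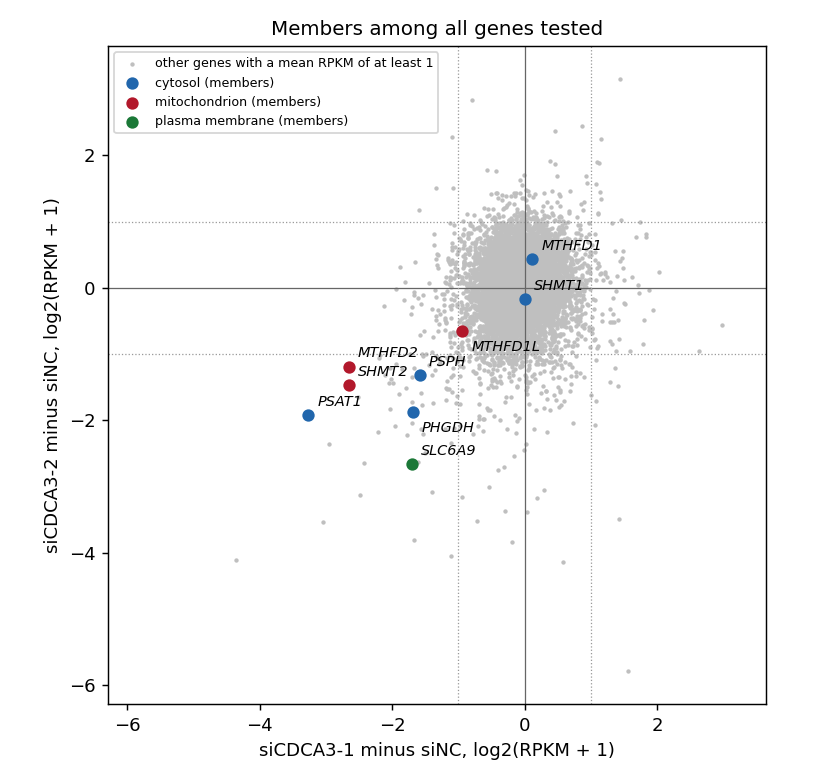
Difference from siNC in log2(RPKM + 1) in siCDCA3-1 (x axis) and siCDCA3-2 (y axis) for the 10153 genes that averaged an RPKM of 1 or more, with 9 of the 10 genes coloured by location and *ALDH1L2* left out for its low level. Dotted lines mark a 2-fold difference. Both axes share the siNC library, *SHMT1* and *MTHFD1* lie in the bulk of genes, and *PSAT1* lies farthest left of the coloured points at -3.27 and -1.92.

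Set by compartment, the 4 mitochondrial enzymes and the 5 cytosolic ones were not separated in a steady direction. The median log2 difference from siNC of the mitochondrial enzymes was -1.79 in siCDCA3-1 and -0.92 in siCDCA3-2. For the cytosolic enzymes it was -1.59 and -1.32. The mitochondrial minus the cytosolic median was therefore -0.21 in siCDCA3-1 and 0.40 in siCDCA3-2. Both groups were mixed: the cytosolic one joins serine synthesis, with medians of -1.69 and -1.87, to the folate enzymes *SHMT1* and *MTHFD1*, with medians of 0.07 and 0.14. Against these cytosolic folate enzymes alone, the mitochondrial median was lower in both libraries, with differences of -1.86 in siCDCA3-1 and -1.06 in siCDCA3-2. Left out of the mitochondrial group for its near-zero level, a choice made after its values were seen, *ALDH1L2* leaves medians of -2.65 and -1.19 for the others. With 1 control library none of these differences was tested.

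Ratios of RPKM within a library compare enzymes of the same step per length and do not depend on the scaling between libraries. *SHMT2* stood at 1.27 times *SHMT1* in siCDCA3-1 (1.19 to 1.34) and 3.49 times in siCDCA3-2 (3.34 to 3.64), against 8.68 times in siNC (8.34 to 9.04). The mitochondrial form was thus ahead in every library, by least in siCDCA3-1. *MTHFD2* stood at 0.403 times *MTHFD1* in siCDCA3-1 (0.382 to 0.426) and 0.964 times in siCDCA3-2 (0.937 to 0.992), against 3.10 times in siNC (3.01 to 3.19). Here *MTHFD1* was ahead in both siCDCA3 libraries and *MTHFD2* in siNC. For *MTHFD1L* and *MTHFD1*, which both carry a formate-tetrahydrofolate ligase, the ratio was 0.467 in siCDCA3-1 (0.447 to 0.488) and 0.462 in siCDCA3-2 (0.448 to 0.476), against 1.03 in siNC (0.999 to 1.07). This last ratio was nearly the same in both siCDCA3 libraries, where both genes were higher in siCDCA3-2 than in siCDCA3-1, at 1.25 and 1.26 times. *MTHFD1*, the lower term of these ratios, was itself at 109% and 137.5% of siNC, which adds to their fall.

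Within serine synthesis the ratio of *PHGDH* to *PSAT1* set siCDCA3-1 apart from the other libraries. *PHGDH* stood at 15.2 times *PSAT1* in siCDCA3-1 (14.1 to 16.4) and 4.38 times in siCDCA3-2 (4.21 to 4.54), against 4.01 times in siNC (3.93 to 4.10). Relative to *PSPH*, *PHGDH* stood at 15.6 times in siCDCA3-1 (14.4 to 16.9) and 10.8 times in siCDCA3-2 (10.2 to 11.4), against 13.9 times in siNC (13.4 to 14.4). *PHGDH* RNA was therefore the most abundant of the route in each library, and *PSAT1*, ahead of *PSPH* by 3.47 times in siNC (3.33 to 3.61), was level with it in siCDCA3-1 at 1.02 times (0.920 to 1.14) and ahead in siCDCA3-2 at 2.46 times (2.31 to 2.63).

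**Figure D3:**
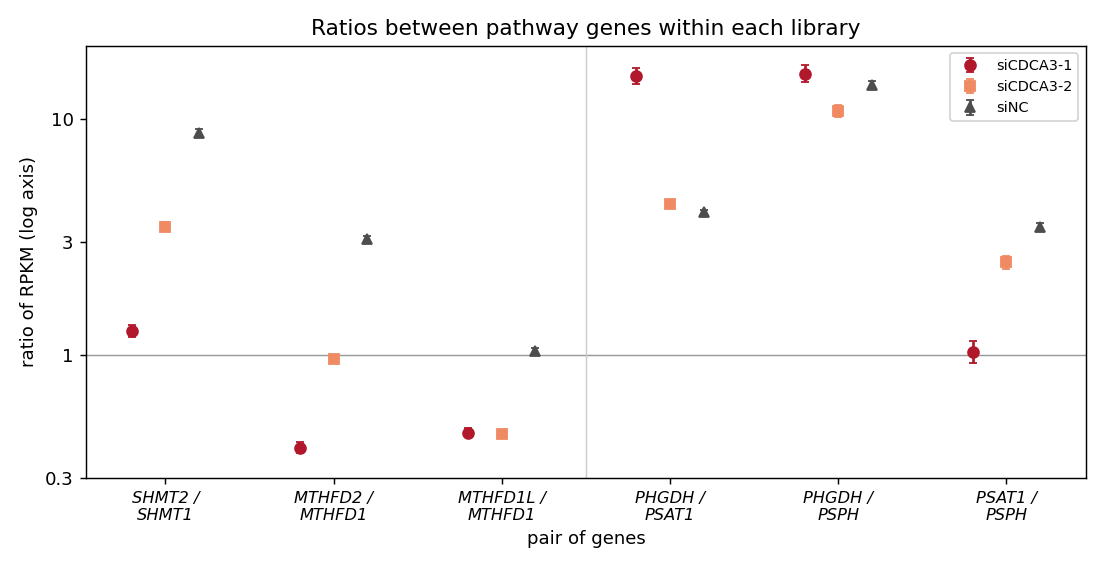
Ratio of RPKM between pairs of genes within each library (log axis), with exact 95% counting intervals as bars. The first 3 pairs set a mitochondrial enzyme over a cytosolic one and are lower in both siCDCA3 libraries than in siNC, and *PHGDH* over *PSAT1* is high in siCDCA3-1 alone at 15.2.

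The siCDCA3 libraries differed from each other at some of these genes. *PSAT1* was 3.06 times as high in siCDCA3-2 as in siCDCA3-1 (2.82 to 3.32), *MTHFD2* 3.01 times (2.86 to 3.18) and *SHMT2* 2.40 times (2.29 to 2.51). *SLC6A9* went the other way at 0.279 times (0.242 to 0.319), and *PHGDH* stood at 0.879 times (0.857 to 0.903). On log2(RPKM + 1), 3 of the 9 genes that averaged an RPKM of 1 or more were 2-fold or more higher in siCDCA3-2 than in siCDCA3-1 and 0 were 2-fold or more lower. Of all 10153 genes 8.63% were 2-fold apart, 498 higher in siCDCA3-2 and 378 lower. *SLC6A9* missed the 2-fold line at -0.96 on this scale because of the pseudocount. *CDCA3* was also higher in siCDCA3-2 than in siCDCA3-1, and the part of this in the differences was not tested.

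Where a gene had several transcripts in the table, most gave nearly the same picture. Transcripts of a gene share exons, so these are not separate measurements. Over the 5 *SHMT2* transcripts the level was 14.6% to 14.7% of siNC in siCDCA3-1 and 34.4% to 35.6% in siCDCA3-2, and over the 9 *SLC6A9* transcripts it was 21.7% to 23.0% and 6.34% to 6.81%. *MTHFD1L* varied more: its 4 transcripts ran from 48.4% to 51.0% in siCDCA3-1 but from 58.7% to 79.3% in siCDCA3-2. Its short transcript NM_001242769.1, of 1065 bases, had an RPKM of 6.13 in siCDCA3-1 and 9.54 in siCDCA3-2, against 12.0 in siNC, and gave the value of 79.3%.

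Some levels are uncertain because reads may be shared. GENCODE 29 names 7 pseudogenes of *MTHFD2*, 4 of *PSAT1* and 1 each of *PSPH*, *SHMT1* and *MTHFD1*. Whether counting used strand is not given, and several genes overlap a gene on the opposite strand. *NDUFA4L2*, which overlaps *SHMT2*, had an RPKM of 0.0727 in siCDCA3-1 and 0.0681 in siCDCA3-2, against 0.471 in siNC. *SLC4A5*, which overlaps *MTHFD2*, had 0.198, 0.582 and 0.883 in the same order, and *CCDC24*, which overlaps *SLC6A9*, had 3.29, 1.90 and 4.66. These neighbours were also lower in both siCDCA3 libraries, and their part in the levels of *SHMT2*, *MTHFD2* and *SLC6A9* was not tested. *SMCR8*, which overlaps *SHMT1*, had 3.62 in siCDCA3-1 and 2.62 in siCDCA3-2, against 2.07 in siNC. *ZBTB25*, which overlaps *MTHFD1*, had 1.26, 1.37 and 1.07 in the same order. *C12orf45*, which overlaps *ALDH1L2*, had 2.45, 3.72 and 3.40, far above *ALDH1L2* itself. The part of these neighbours in the levels of *SHMT1*, *MTHFD1* and *ALDH1L2* was not tested.

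Promoters were compared because most of the genes were lower together while *SHMT1* and *MTHFD1* were not. RefSeq (GRCh38.p14) promoters were matched for 7 of the 10 genes. *PSPH*, *SHMT2* and *ALDH1L2* had no match and were not searched, though *PSPH* and *SHMT2* are in the lower set. For the matched genes the 250 bases before the start were searched on both strands. The motifs were TGATGNAA, the core of the composite element bound by ATF4 with C/EBP partners, the E-box CACGTG, and CCAAT, the last chosen after the sequences were seen. A pair of genes of the lower set and both cytosolic folate genes are shown, with every CCAAT (or ATTGG on the other strand) and CACGTG in capitals, at chr9:78296875-78297124 (plus strand), chr2:74198365-74198614 (plus strand), chr17:18363551-18363800 (minus strand) and chr14:64388103-64388352 (plus strand).
PSAT1: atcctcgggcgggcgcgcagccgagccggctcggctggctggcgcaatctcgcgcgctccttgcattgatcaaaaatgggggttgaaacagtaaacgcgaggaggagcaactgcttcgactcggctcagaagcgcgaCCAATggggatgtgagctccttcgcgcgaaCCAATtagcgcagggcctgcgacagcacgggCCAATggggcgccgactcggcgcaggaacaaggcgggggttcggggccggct
MTHFD2: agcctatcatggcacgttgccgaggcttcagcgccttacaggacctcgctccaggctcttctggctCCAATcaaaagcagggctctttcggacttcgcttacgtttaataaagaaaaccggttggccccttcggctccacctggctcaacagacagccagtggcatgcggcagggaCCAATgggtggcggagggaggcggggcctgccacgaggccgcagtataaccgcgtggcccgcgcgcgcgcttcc
SHMT1: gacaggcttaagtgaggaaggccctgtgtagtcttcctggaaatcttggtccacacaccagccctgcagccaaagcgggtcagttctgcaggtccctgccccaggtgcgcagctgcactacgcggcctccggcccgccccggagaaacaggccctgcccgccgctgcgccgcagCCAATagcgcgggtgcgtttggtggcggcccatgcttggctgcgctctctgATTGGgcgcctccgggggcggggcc
MTHFD1: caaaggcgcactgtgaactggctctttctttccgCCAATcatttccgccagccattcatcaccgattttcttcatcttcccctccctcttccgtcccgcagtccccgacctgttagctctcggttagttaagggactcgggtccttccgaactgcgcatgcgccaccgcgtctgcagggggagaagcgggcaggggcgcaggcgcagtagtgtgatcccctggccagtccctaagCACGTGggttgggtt

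CCAAT was found in 6 of the 7 genes, all but *SLC6A9*, lower and not lower alike, against 32.0% of 35116 RefSeq promoters. Because CCAAT was chosen after these sequences were seen, nothing is read from the gap. *PSAT1* holds it 3 times, starting at positions -113, -83 and -52 from the start. CACGTG was found in *MTHFD1* at -15 to -10 and in *MTHFD1L*, against 6.35% of promoters. TGATGNAA was found in *MTHFD1L* alone, against 3.14% of promoters, at -90 to -83 from the start site at 150866447 and again, as the same bases, before the start at 150866486. The gene has 4 starts in the table, and the windows of the other two, at 150866333 and 151007008, held 0 matches. That share is per promoter, so a gene with several windows has more chances of a match. These 30 bases (chr6:150866346-150866375, plus strand) have that match in capitals.
MTHFD1L: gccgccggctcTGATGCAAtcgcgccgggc

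The stricter motif TGATGCAA, which overlaps TGATGNAA, also matched there and is held by 0.772% of promoters. *MTHFD1L* was among the least lowered of the genes under siNC, and no match was found in this window for *PHGDH*, *PSAT1*, *MTHFD2* or *SLC6A9*. A match is a string of letters and not a shown binding site, and its absence from this window says nothing of the factor. *ATF4* itself had an RPKM of 33.3 in siCDCA3-1 and 36.7 in siCDCA3-2, against 83.1 in siNC. *ASNS*, the asparagine-making enzyme and another known ATF4 target, had 1.02 and 1.40, against 40.5 in siNC, and was called lower in the edgeR fit over all genes described for the wider pathway (adjusted p = 0.00143). *MYC*, which encodes an E-box factor, had 17.3 and 54.9, against 27.5 in siNC, on opposite sides of it. The edgeR fit called neither *ATF4* nor *MYC* (adjusted p = 0.9997 for each), and it called 0.0295% of all genes lower. It rests on a single control library, and *ASNS* was chosen with earlier results of these data known.

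The wider pathway was read from 8 further lists holding 63 genes of the table, of which 41 averaged an RPKM of 1 or more. An edgeR quasi-likelihood fit of siCDCA3 against siNC over all 10153 genes called 0.0295% of genes lower (Benjamini-Hochberg adjusted p under 0.05) and 0% higher. At an unadjusted p under 0.05 it had 98 genes lower and 36 higher, or 134 of the 10153. That is a share under 0.05, the share such a threshold passes when no gene differs. Of the 41 genes 0 passed in either direction, with 2 at an unadjusted p under 0.05, both lower. *CDCA3* itself, at 10.4% of siNC in siCDCA3-1 and 25.3% in siCDCA3-2, was not called by edgeR either (adjusted p = 0.9997). The fit can thus miss large differences, and 0 of 41 does not show that these genes were unchanged. DESeq2, which called 0.0788% of all genes lower and 0.0197% higher, called 0 of the 41, as did limma, which called 0% of all genes in either direction. The fit takes the spread of the lone control library from the siCDCA3 libraries, and nothing in the labels states that those came from separate cultures, so the spread may be technical. The medians and counts of these lists are over the genes that averaged an RPKM of 1 or more. Their median log2 difference from siNC was -0.14 in siCDCA3-1 and 0.25 in siCDCA3-2. Lower in both libraries were 6 of the 41 and higher in both 6, against 27.8% and 23.6% of all genes. Past 2-fold lower in both were 2, against 0.719% of all genes, and both are transporters. These lists were also chosen with earlier results of these data known, so nothing is read from this gap.

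*SLC1A5*, the neutral amino acid exchanger that carries glutamine and serine, had an RPKM of 26.6 in siCDCA3-1 and 49.7 in siCDCA3-2, against 157 in siNC. *SLC1A4*, a related serine and alanine transporter named after its values were seen, had 0.470 and 1.55, against 4.65 in siNC. edgeR without a filter called *SLC1A4* lower, and no other gene of these lists, against 0.0959% of genes lower and 0.0213% higher. Over the 8 of 12 transport genes that averaged an RPKM of 1 or more, the median was -0.43 in siCDCA3-1 and -0.02 in siCDCA3-2. Of these, 3 were lower in both, against 27.8% of all genes. Below that level, *SLC38A4*, an amino acid transporter named after its values were seen, had an RPKM of 0.357 and 0.764, against 0.154 in siNC.

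In the lists of other folate enzymes and of purine synthesis 0 genes were past 2-fold lower in both siCDCA3 libraries. The 5 other folate enzymes tested, among them dihydrofolate reductase and thymidylate synthase, had a median of -0.14 in siCDCA3-1 and one of 0.11 in siCDCA3-2, and 0 were on the same side of siNC in both. Folate uptake and retention genes had medians of -0.18 and 0.72 over 5 genes. In this list *SLC46A1*, the proton-coupled folate transporter, was the one gene lower in both, with an RPKM of 5.98 and 5.26, against 6.51 in siNC. Purine synthesis had medians of -0.24 and 0.32, and 0 of its 6 genes lay on the same side of siNC in both libraries.

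Glycine cleavage and serine or glycine breakdown genes had medians of -0.27 and 0.40 over 5 genes. *SDSL*, a serine dehydratase-like enzyme, had an RPKM of 0.968 in siCDCA3-1 and 1.36 in siCDCA3-2, against 1.84 in siNC. Lower in both were 2 of the 5, against 27.8% of all genes. The methionine cycle had medians of 0.06 and 0.05 over 7 genes, 3 of them higher in both, and *MAT2B*, a regulatory subunit of methionine adenosyltransferase, had 11.4 and 11.2, against 10.8 in siNC. Of the genes that use serine for lipids 3 of 4 were higher in both, with medians of 0.06 and 0.39, and *PTDSS2*, a phosphatidylserine synthase, had 7.48 and 7.74, against 6.74 in siNC. Of all genes 23.6% were higher in both. Such counts go by sign alone, and *MAT2B* counts as higher at log2 differences of 0.063 and 0.049. The choline to glycine route had 1 tested gene, with differences of 0.12 and -0.45.

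**Figure D4:**
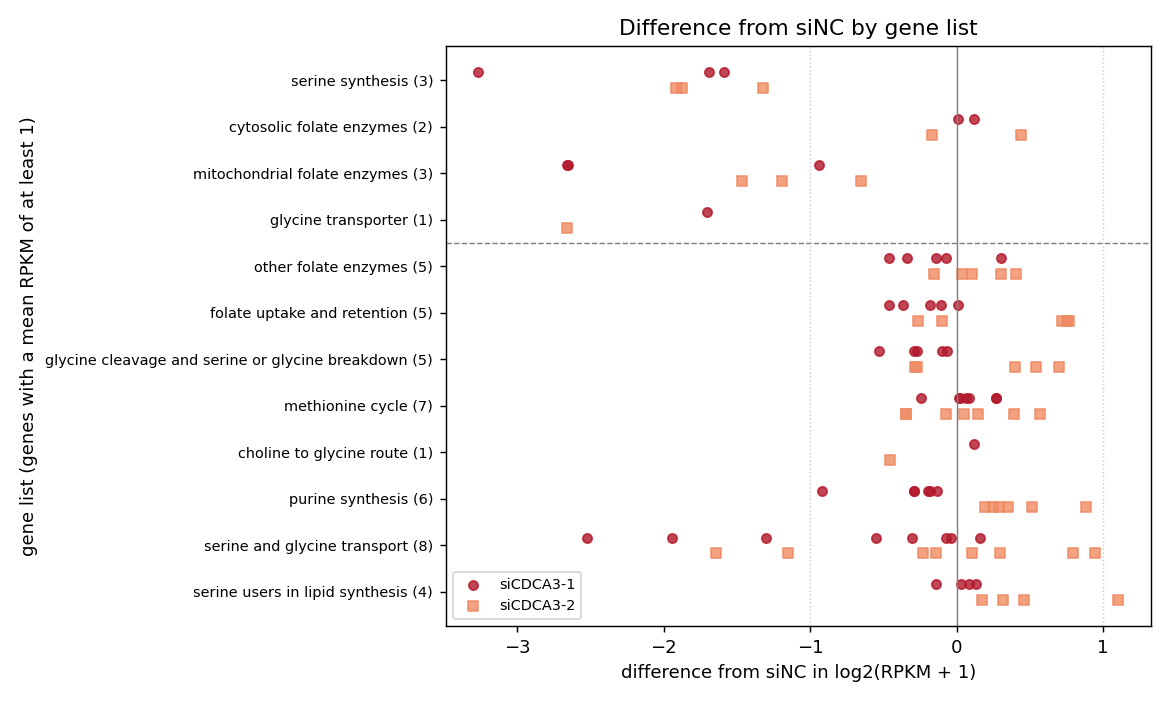
Difference from siNC in log2(RPKM + 1) for each gene that averaged an RPKM of 1 or more, with 1 point per gene in siCDCA3-1 and 1 in siCDCA3-2, the number of genes in brackets and dotted lines at a 2-fold difference. The lists above the dashed line hold 9 of the 10 genes, and below it *SLC1A5* and *SLC1A4* in the transport list are the genes past 2-fold lower in both libraries. *SLC38A1* at -1.30 in siCDCA3-1 is past a line in that library alone, and so is *PTDSS1* at 1.10 in siCDCA3-2.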

How the data were processed

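RNA of 5637 cells was measured in 2 siCDCA3 libraries and 1 siNC library, prepared after removal of ribosomal RNA and sequenced as read pairs, per the labels' protocols. Trimmomatic 0.36, FastQC, HISAT2 and HTSeq are listed in the submitters' processing notes, with the builds hg38 and mm10 given no role. The deposited table holds a whole-number count of reads per RefSeq transcript, per the file headers. It also holds RPKM, which the authors scaled from the count by length and library total, per the file headers and the values. The deposited length column, another unit, gives transcript length in bases.

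Each gene was represented by its transcript with the highest summed count, and 102 of 103 symbols that a spreadsheet had turned into dates were restored by accession. RefSeq accessions matched GRCh38.p14 for 98.6% of transcripts. Levels are RPKM as deposited, and differences are of log2(RPKM + 1), whose pseudocount of 1 understates changes of low genes. edgeR 4.0.16 in R 4.3.3 (TMM, quasi-likelihood, two-sided, Benjamini-Hochberg over genes averaging an RPKM of 1 or more) used siCDCA3 against siNC. DESeq2 1.42.0, limma 3.58.1, pseudocounts of 0.1 and 0.5, other filters and scalings, the longest transcript and each siCDCA3 library left out were alternatives. The 10 genes and all lists were chosen with earlier results of these data known. All 10 are named; of each further list, the genes most lowered and most raised in the less changed siCDCA3 library are named, with *ATF4*, *MYC*, *CDCA3* and *ASNS*.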

Additional observations from a re-analysis of the deposited data

How the results depend on the processing

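The count of 6 genes at least 2-fold lower was the same under TMM or median-of-ratios scaling and with the longest transcript. It was also 6 under pseudocounts of 0.1 and 0.5 and with either siCDCA3 library left out. A smaller pseudocount or a left-out library can only keep or raise this count, so these settings could not have lowered it. The choice of genes in either group decided the compartment comparison. Averaged over the siCDCA3 libraries, the cytosolic median was -1.45 with all 5 enzymes and 0.10 with *SHMT1* and *MTHFD1* only, and the mitochondrial minus cytosolic difference was 0.10 and -1.46. With all 5 cytosolic enzymes but without *ALDH1L2*, left out after its values were seen, the difference went from 0.10 to -0.47 and so changed sign. With the longest transcripts the ratio of *SHMT2* to *SHMT1* was 1.15 in siCDCA3-1, 3.20 in siCDCA3-2 and 7.90 in siNC. Of all genes, 73 were at least 2-fold lower in both siCDCA3 libraries and 10 at least 2-fold higher in both. With 1 siCDCA3 library left out the criterion is looser, since only the other library has to meet it. Those counts were 177 to 332 lower and 86 to 144 higher. A pseudocount of 0.1 widens the differences of low genes and gave 101 lower and 32 higher in both. edgeR called 3 genes lower and 0 higher, and 18 and 4 with no filter on low values, where 1 gene of the further lists passed. At a mean RPKM of at least 5 it called 0 lower. An unadjusted p under 0.05 was reached by 74 of 5499 genes there, 57 of them lower. DESeq2 called 8 lower and 2 higher, and limma 0 lower. In limma an unadjusted p under 0.05 was reached by 121 of 10153 genes, 99 of them lower. Both unadjusted shares are under 0.05. The causes of the changes between these fits were not tested. Leaving out a siCDCA3 library leaves 1 library a group, so those settings give values and no test. No paired analysis was possible because siNC is a single library with no replicate number. Depth limits *ALDH1L2* alone of the 10 genes.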

Other observations

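Beyond the 10 genes, those nearest in pattern to *PSAT1* and to the mitochondrial enzymes were looked up among 5470 genes whose siNC level was an RPKM of 5 or more, by Euclidean distance between pairs of log2 differences from siNC, 1 per siCDCA3 library. Nearest to *PSAT1* was *TRIB3*, a pseudokinase of the stress response, at a distance of 0.546, with an RPKM of 3.17 in siCDCA3-1 and 5.28 in siCDCA3-2, against 31.3 in siNC. *SLC1A5*, which is in the serine and glycine transport list, followed at 0.796, then *PCK2* at 1.11 and the tRNA synthetase genes *MARS* at 1.23 and *YARS* at 1.30. *YARS* had an RPKM of 10.8 and 19.6, against 50.2 in siNC. The median of the 4 mitochondrial enzymes lies at -1.79 and -0.92 through the near-zero *ALDH1L2*. Without that gene it is -2.65 and -1.19, so the neighbours of the first are near a midpoint and not near an enzyme. Nearest to the median with all 4 was the cytokine gene *IL1B*, at 0.103, with an RPKM of 30.8 in siCDCA3-1 and 51.8 in siCDCA3-2, against 105 in siNC. *SLC3A2*, the heavy chain of several amino acid transporters, lay at 0.258 with 112 and 164.5, against 329 in siNC. *IL36G* at 0.289, *GJB6* at 0.294 and *EIF4EBP1* at 0.307 came next, the last a repressor of translation initiation with 22.1 and 34.8, against 82.4 in siNC. The distances rest on 3 libraries that share siNC and say nothing of shared control.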
